A study of Mus musculus with 2 samples.

Results

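The endothelin 1 axis is described here by 4 genes, found in the matrices by their symbols. They are Edn1, which encodes the peptide endothelin 1, Ednra and Ednrb, which encode its receptors, and Ece1, which encodes an enzyme that makes the active peptide. Each of the 4 symbols matched 1 of the 27998 genes in the matrices. The data were 2 droplet-based single-cell RNA libraries that count the 3′ ends of transcripts as unique molecular identifiers (UMIs). They came from mouse embryos of a Swiss Webster background at embryonic day 9.5 (E9.5), when the pharyngeal arches and the looping heart form. The pharyngeal apparatus and heart were dissociated, and live cells positive for GFP were collected by sorting. The control embryos (Ctrl) had the genotype Mesp1Cre;Rosa26-GFPflox/+, a mesodermal Cre driver with a GFP reporter that Cre switches on. The conditional knockout embryos (cKO) carried the same driver and reporter and were also Tbx1flox/flox.

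Mesp1Cre acts in early mesoderm, so the sorted cells should be mesoderm-derived, and neural crest, surface ectoderm and pharyngeal endoderm should be largely outside the sort. Each genotype had 1 library, made from a pair of pooled embryos. By the study's somite counts the cKO embryos were slightly older than the Ctrl embryos, so stage and genotype cannot be told apart in any ratio. Without replicates no genotype test could be made, and each ratio describes 2 libraries and not 2 genotypes. All intervals are at 95% and cover counting error alone. Levels are summed UMIs of a cell class on the counts-per-million scale (CPM) with exact Poisson intervals. They are compared for 1 gene between classes or libraries and never between genes, since counts of 3′ ends are not scaled to transcript length.

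Endothelin 1 is made as an inactive precursor that furin-like proteases trim to big endothelin, which endothelin-converting enzyme 1 cleaves to the active peptide. The peptide acts on neighbouring cells through 2 G-protein-coupled receptors. In the embryonic face, epithelium and core mesoderm of the pharyngeal arches are known sources of endothelin 1, and the type A receptor on arch mesenchyme of neural crest origin receives it and drives the lower jaw programme of Dlx5, Dlx6 and Hand2. The type B receptor binds all endothelins and is known from neural crest, enteric neuron and melanocyte precursors and from endothelium. Branchiomeric muscle progenitors are the core mesoderm cells that form the muscles of the jaw and face.

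On the GRCm38.p6 build, Edn1 (ENSMUSG00000021367) lies at chr13:42301476-42307990 on the plus strand and Ednra (ENSMUSG00000031616) at chr8:77663029-77724452 on the minus strand. Ednrb (ENSMUSG00000022122) lies at chr14:103814615-103844508 on the minus strand and Ece1 (ENSMUSG00000057530) at chr4:137862237-137965229 on the plus strand. The RefSeq promoter table matched all 4 genes, with 1 annotated start each for Edn1, Ednra and Ednrb and 4 for Ece1. The 250 bases upstream of the start are shown for Edn1 and Ednra because these were the members that differed most between the libraries in branchiomeric progenitors. They are the RefSeq reference sequence, 5′ to 3′ on the strand of the gene, at chr13:42301226-42301475 (plus strand) and chr8:77724453-77724702 (minus strand). Capitals mark the motif matches.
Edn1: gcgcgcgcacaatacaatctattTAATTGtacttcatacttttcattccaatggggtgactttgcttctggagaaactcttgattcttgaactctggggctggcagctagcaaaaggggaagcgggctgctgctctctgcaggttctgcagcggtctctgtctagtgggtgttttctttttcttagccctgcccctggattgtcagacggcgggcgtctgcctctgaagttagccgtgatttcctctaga
Ednra: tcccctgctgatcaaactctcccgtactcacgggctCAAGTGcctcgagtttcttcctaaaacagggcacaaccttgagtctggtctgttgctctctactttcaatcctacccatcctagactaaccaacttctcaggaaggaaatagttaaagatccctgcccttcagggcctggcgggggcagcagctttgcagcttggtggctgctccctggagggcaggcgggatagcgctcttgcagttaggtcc

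Both strands of these windows were searched for 5 motifs by their letters. The T-box letters TCACACC, of the family that Tbx1 belongs to, matched 3.33% of all 32851 RefSeq windows of the same length and none of the windows of the 4 genes. The homeodomain letters TAATTG matched 7.17% of all windows, and 1 match lay 227 bases before the start of Edn1. E-box letters, CANNTG, matched 66.2% of all windows, and 1 match lay 214 bases before the start of Ednra. The GATA letters GATAAG (6.55% of all windows) and the TATA box letters TATAAA (12.4%) matched neither sequence shown. These motifs do not overlap in the matches marked. A match is a description and not a binding site, and no match says only that these letters are absent from this window.

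The matrices held 7418 cells labelled Ctrl and 10281 labelled cKO, with 132017331 and 162874391 UMIs. Of these, 6591 and 8969 cells passed the cell filters and doublet removal, with medians of 16854 and 14189 UMIs. The libraries shared 15 cell barcodes, of which 11 were kept in both. The 4 genes took no part in the clustering, and neither did genes at least 2-fold apart between the libraries within a provisional class. Clustering gave 28 clusters, and marker lists named 19 of them. They fell into 10 classes, 9 of them with at least 50 cells, and names end in -like. Clusters that could not be named held 35.2% of kept cells labelled Ctrl and 41.5% of those labelled cKO and are called by their leading genes. The classes used most are branchiomeric muscle progenitor (BrM-like, 518 and 668 cells), multilineage primed progenitor (MLP-like, 1051 and 1502 cells) and endothelium-like cells (367 and 381 cells). The BrM-like class held 2 clusters, in which 10 and 9 of 10 listed markers were raised over the other clusters, and the endothelium-like class 2 clusters with 10 and 9 of 10. Other classes were cardiomyocyte (CM-like), second heart field of the posterior kind (pSHF-like) and a class of somatic mesoderm with anterior second heart field (SoM/aSHF-like), besides epicardium-like, paraxial mesoderm-like and erythroid-like.

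Tbx1, the targeted transcription factor gene, stood at 26.4 CPM over all kept cells labelled Ctrl and 44.8 CPM over those labelled cKO, and so was higher in the library that should carry the deletion (log2 ratio 0.76, 0.70 to 0.82). In MLP-like cells it stood at 50.8 CPM in the library labelled Ctrl (918 UMIs) and at 108 CPM in the library labelled cKO (2620 UMIs), a log2 ratio of 1.09 (0.98 to 1.20). BrM-like cells held 121 CPM labelled Ctrl and 96.0 CPM labelled cKO (log2 ratio −0.33, −0.45 to −0.20). The ratio was also above 0 in SoM/aSHF-like (0.67, 0.28 to 1.07), pSHF-like (0.98, 0.68 to 1.27) and paraxial mesoderm-like cells (2.42, 1.62 to 3.29), and within counting error of 0 in CM-like (−0.15, −0.87 to 0.59) and endothelium-like cells (−0.55, −1.25 to 0.13). Of these 7 classes, BrM-like cells were thus the one with Tbx1 lower labelled cKO beyond counting error. Counts of 3′ ends cannot tell an intact transcript from a recombined one. Higher and lower below therefore refer to the labels of the libraries, with Ctrl as the reference. The median log2 ratio over expressed genes was −0.12 in BrM-like, −0.11 in MLP-like and −0.10 in endothelium-like cells. Relative to that median, the log2 ratio of Edn1 was −1.65 in BrM-like and −0.19 in endothelium-like cells.

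Edn1 was concentrated in few classes. In the library labelled Ctrl, BrM-like cells carried the highest level, 86.9 CPM (81.2 to 92.9, 866 UMIs). Endothelium-like cells followed with 31.9 CPM (27.7 to 36.6, 206 UMIs) and SoM/aSHF-like cells with 14.8 CPM (12.1 to 17.9, 106 UMIs). The 3 highest classes in that order did not overlap in their counting intervals. Epicardium-like cells stood at 9.98 CPM (5.46 to 16.7, 14 UMIs), MLP-like cells at 8.19 CPM (6.92 to 9.62, 148 UMIs) and CM-like cells at 5.45 CPM (3.59 to 7.93, 27 UMIs). The epicardium-like interval overlapped those of its neighbours on both sides, and MLP-like and CM-like cells also overlapped. In pSHF-like cells Edn1 was low, at 0.393 CPM (0.170 to 0.774, 8 UMIs). In paraxial mesoderm-like cells it stood at 0.247 CPM (0.0300 to 0.894, 2 UMIs), under the 0.371 CPM that 3 UMIs would give.

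In the library labelled cKO the order at the top was not the same. Endothelium-like cells stood at 26.1 CPM (22.0 to 30.8, 142 UMIs) and BrM-like cells at 25.5 CPM (22.5 to 28.8, 256 UMIs), which did not differ beyond counting error. SoM/aSHF-like cells came next with 14.3 CPM (11.7 to 17.3, 105 UMIs). Epicardium-like cells stood at 5.85 CPM (9 UMIs), MLP-like cells at 4.37 CPM (3.58 to 5.29, 106 UMIs) and CM-like cells at 2.77 CPM (1.72 to 4.24, 21 UMIs), with overlaps between neighbours among these 3. The pSHF-like class held 5 Edn1 UMIs and the paraxial mesoderm-like class 1. The 151 erythroid-like cells, present only in this library, held none, which allows a level of up to 0.932 CPM.

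**Figure D1:**
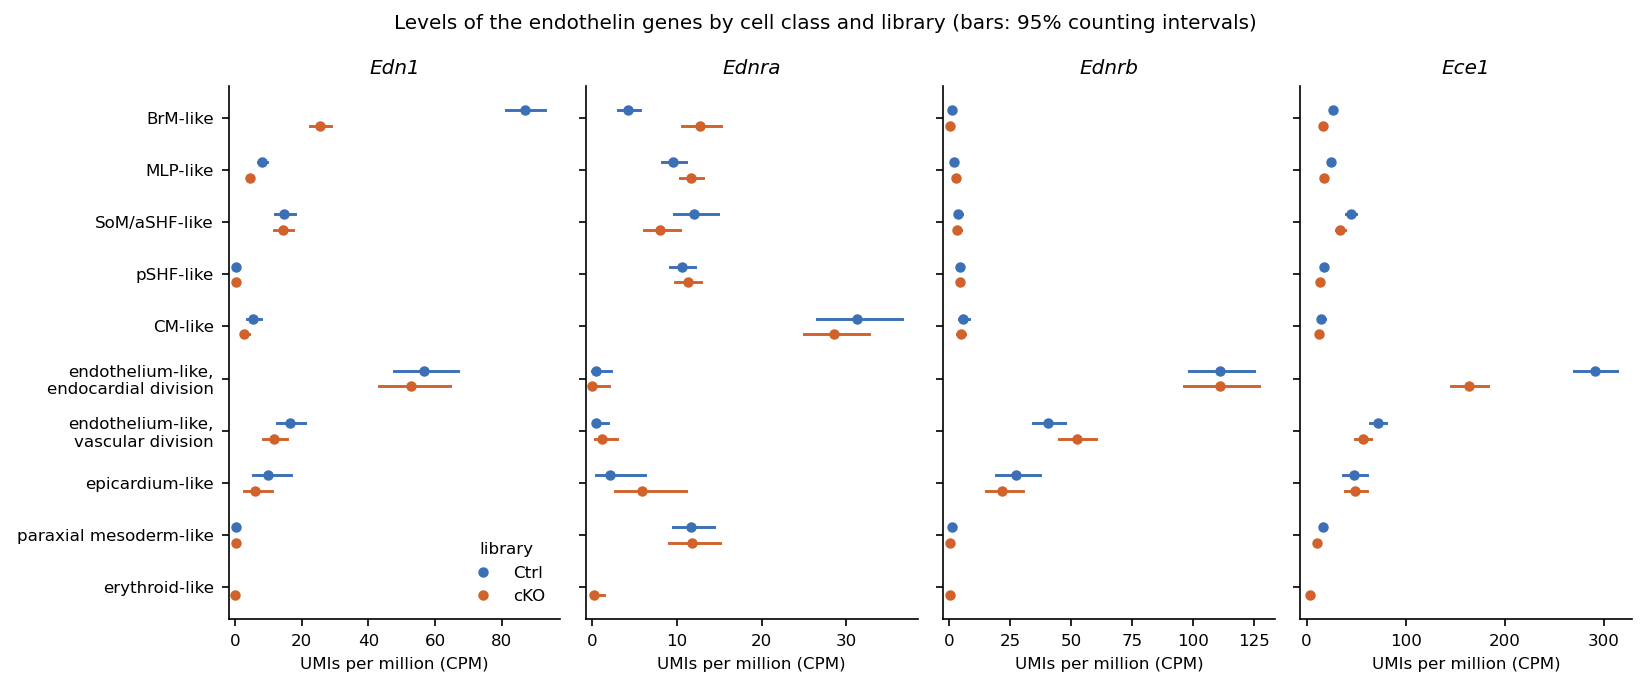
Levels of Edn1, Ednra, Ednrb and Ece1 in each cell class, on a linear axis in CPM, with 1 point per library (Ctrl and cKO) and bars for the 95% counting intervals. Endothelium-like cells are drawn as an endocardial and a vascular division. Edn1 stands highest in BrM-like cells labelled Ctrl at 86.9 CPM. Labelled cKO it stands at 25.5 CPM in BrM-like cells, 52.9 CPM in the endocardial and 11.6 CPM in the vascular division. Ednrb and Ece1 stand highest in the endocardial division of both libraries.

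The first comparison asks whether branchiomeric progenitors carry less Edn1 when Tbx1 is targeted in mesoderm. BrM-like cells held 86.9 CPM of Edn1 labelled Ctrl and 25.5 CPM labelled cKO, 3.41-fold lower (2.96 to 3.93), a log2 ratio of −1.77 (−1.98 to −1.57). Edn1 passed the filter of at least 10 CPM and 30 UMIs in either library, and among the 7646 genes that did so in BrM-like cells 4.21% were at least 2-fold lower in the library labelled cKO and 1.48% at least 2-fold higher. Both BrM-like clusters showed the difference. The cluster led by Col25a1 and Lhx2 stood at 81.1 CPM (547 UMIs) and 27.8 CPM (177 UMIs), a log2 ratio of −1.54 (−1.80 to −1.30). The cluster led by Nkx2-3 and Tlx1 stood at 99.0 CPM (319 UMIs) and 21.5 CPM (79 UMIs), a log2 ratio of −2.21 (−2.58 to −1.85). BrM-like cells made up 7.86% and 7.45% of kept cells, so the class itself was of like size in both libraries.

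MLP-like cells resemble the shared progenitors that the study placed upstream of cardiac and branchiomeric muscle. Their Edn1 level was 8.19 CPM labelled Ctrl and 4.37 CPM labelled cKO, a log2 ratio of −0.91 (−1.28 to −0.54). Edn1 missed the filter in this class because it was below 10 CPM in both libraries, and the background in MLP-like cells was 3.48% of 7707 genes at least 2-fold lower and 0.701% at least 2-fold higher. The clusters of the class were unequal. The MLP-like cluster with Nrg1 and Grem1 among its leading genes went from 17.1 CPM (82 UMIs) to 3.60 CPM (19 UMIs), a log2 ratio of −2.25 (−3.05 to −1.51). In the others, Edn1 stood at 4.21 and 4.73 CPM in 1 and at 8.13 and 4.22 CPM in the other.

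Outside these progenitors the Edn1 ratio was smaller or less certain. Endothelium-like cells stood at 31.9 and 26.1 CPM, with a log2 ratio of −0.29 (−0.61 to 0.02), within counting error, where 1.72% of 7783 genes were at least 2-fold lower and 0.437% at least 2-fold higher. With presumed doublets kept, the ratio in endothelium-like cells was −0.66 (−0.96 to −0.36), beyond counting error. SoM/aSHF-like cells gave −0.05 (−0.45 to 0.35). CM-like cells gave −0.98 (−1.87 to −0.10) on 27 and 21 UMIs. In all, 7 classes had enough Edn1 UMIs to compare, of which 3 were lower beyond counting error in the library labelled cKO and 0 higher, and of 19 clusters 7 were lower and 1 higher.

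The difference between ratios was then compared directly, with approximate intervals. The log2 ratio of Edn1 in BrM-like cells was below that in endothelium-like cells by a difference of −1.48 (−1.85 to −1.11). It differed from that in MLP-like cells by −0.86 (−1.28 to −0.45) and from that in SoM/aSHF-like cells by −1.72 (−2.16 to −1.28). These intervals cover counting error within 1 library per genotype.

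**Figure D2:**
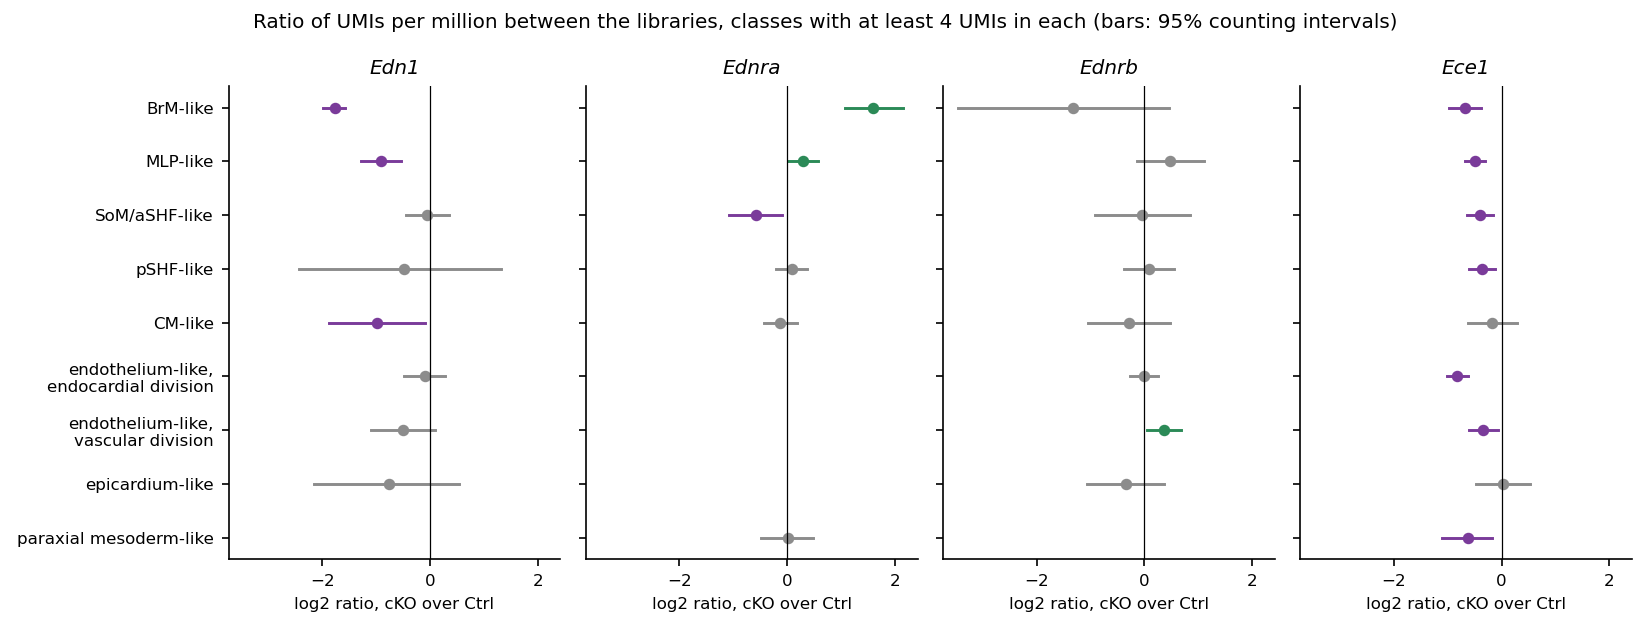
Log2 ratio of CPM, library labelled cKO over library labelled Ctrl, for each gene and each class with at least 4 UMIs in both libraries, with bars for the 95% counting intervals and a line at 0. Endothelium-like cells are drawn as an endocardial and a vascular division. BrM-like cells show the lowest Edn1 value (−1.77) and an Ednra value above 0 (1.6). The Ednrb intervals span 0 except in the vascular division (0.37), and Ece1 lies below 0 everywhere except in epicardium-like cells (0.03).

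The same difference appeared in the share of UMIs. Over all kept cells Edn1 stood at 12.1 CPM labelled Ctrl (1425 UMIs) and 5.10 CPM labelled cKO (697 UMIs), a log2 ratio of −1.25 (−1.38 to −1.12). BrM-like cells held 60.8% (58.2 to 63.3) of all Edn1 UMIs in the library labelled Ctrl and 36.7% (33.1 to 40.4) in the library labelled cKO. Endothelium-like cells held 14.5% and 20.4%, MLP-like cells 10.4% and 15.2%, and SoM/aSHF-like cells 7.44% and 15.1%. The unnamed clusters together held 3.37% and 7.46%.

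Shares of cells were compared after thinning each cell to 5000 UMIs, since median depths differed (18580 UMIs in BrM-like cells labelled Ctrl and 14113 labelled cKO). An Edn1 UMI was found in 32.8% (28.8 to 37.1, 169 of 515) of thinned BrM-like cells labelled Ctrl and in 10.7% (8.43 to 13.3, 71 of 665) of those labelled cKO. Without thinning the shares were 62.5% and 24.9%. In thinned endothelium-like cells the shares were 9.94% (7.06 to 13.5) and 8.94% (6.24 to 12.3), and 19.1% and 14.2% without thinning, at median depths of 16419 and 13881 UMIs. As a background, 0 of 408 thinned paraxial mesoderm-like cells labelled Ctrl carried Edn1, which allows a share of up to 0.900%, at a median depth of 18581 UMIs. Labelled cKO, 1 of 309 paraxial mesoderm-like cells carried it (median depth 15808 UMIs) and 0 of 151 erythroid-like cells (median depth 25038 UMIs), which allows up to 2.41%. The BrM-like and endothelium-like shares in both libraries lay above these backgrounds.

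The number of Edn1 UMIs in a positive BrM-like cell was also lower in the library labelled cKO. Among thinned BrM-like cells labelled Ctrl, 22.5% held 1 UMI, 6.80% held 2, 3.11% held 3 and 0.388% held 4 or more. Labelled cKO, 9.62% held 1 UMI, 1.05% held 2 and none held 3 or more. The mean over positive thinned BrM-like cells was 1.44 UMIs labelled Ctrl and 1.10 labelled cKO. The highest BrM-like cell before thinning held 11 Edn1 UMIs labelled Ctrl and 4 labelled cKO.

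Endothelium-like cells kept a tail of cells with many Edn1 UMIs in both libraries. After thinning, 1.93% of endothelium-like cells labelled Ctrl and 1.90% of those labelled cKO held 4 or more. The means over positive cells were 1.97 and 1.91 UMIs, and the highest cells before thinning held 11 and 12. Before thinning, the 10% of BrM-like cells with the most Edn1 held 38.7% of its UMIs labelled Ctrl and 61.3% labelled cKO. In the endothelium-like class they held 83.5% and 89.4%, and in its endocardial division alone 70.9% and 73.3%. This share rises as fewer cells are positive and was 100% in MLP-like cells of both libraries, so it does not separate level from spread.

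**Figure D3:**
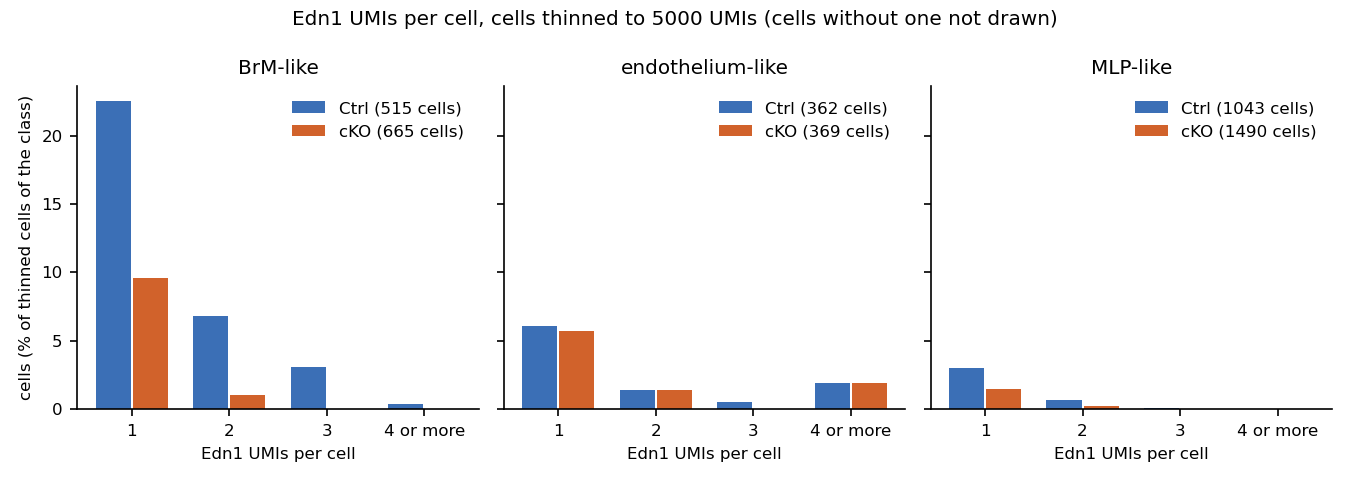
Share of thinned cells (5000 UMIs per cell) that held 1, 2, 3 or at least 4 Edn1 UMIs, in percent of the thinned cells of the class. Panels show BrM-like, endothelium-like and MLP-like cells of both libraries. Bars start at 0 and cells without an Edn1 UMI are not drawn. BrM-like cells labelled Ctrl reach 22.5% at 1 UMI and those labelled cKO 9.62%, while the endothelium-like bars of both libraries lie close to each other.

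A second comparison sets branchiomeric progenitors beside endothelium, the tissue in which endothelin 1 was named. In the library labelled Ctrl, Edn1 was 2.72-fold higher (2.34 to 3.19) in BrM-like than in endothelium-like cells, a log2 ratio of 1.45 (1.22 to 1.67), where 6.91% of 8291 genes were at least 2-fold higher in BrM-like cells. In the library labelled cKO the ratio was 0.977 (0.793 to 1.21), a log2 ratio of −0.03 (−0.34 to 0.27), where 6.53% of 7884 genes were at least 2-fold higher.

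The endothelium-like class held an endocardial cluster, with the larger number of endocardial markers, and a vascular one, and they differed in Edn1. The endocardial division stood at 56.6 CPM labelled Ctrl (47.6 to 66.7, 141 UMIs) and 52.9 CPM labelled cKO (43.1 to 64.3, 101 UMIs). The vascular division stood at 16.4 CPM (12.7 to 20.9, 65 UMIs) and 11.6 CPM (8.33 to 15.7, 41 UMIs). The log2 ratio between libraries was −0.10 (−0.48 to 0.28) in the endocardial and −0.50 (−1.10 to 0.09) in the vascular division, both within counting error. Set against the endocardial division alone, BrM-like cells were higher in the library labelled Ctrl, at a log2 ratio of 0.62 (0.36 to 0.89), and lower in the library labelled cKO, at −1.05 (−1.39 to −0.71). Set against the vascular division alone, BrM-like cells were higher in both, by 5.30-fold labelled Ctrl and 2.20-fold labelled cKO. The order of BrM-like and endothelium-like cells labelled cKO thus depended on which endothelial cluster was taken, and it was 0.33 (0.04 to 0.63) with doublets kept, −0.49 (−0.80 to −0.18) with cells gated by markers alone and 0.45 (−0.06 to 0.97) when only cells with Y-linked and no Xist UMIs were taken.

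**Figure D4:**
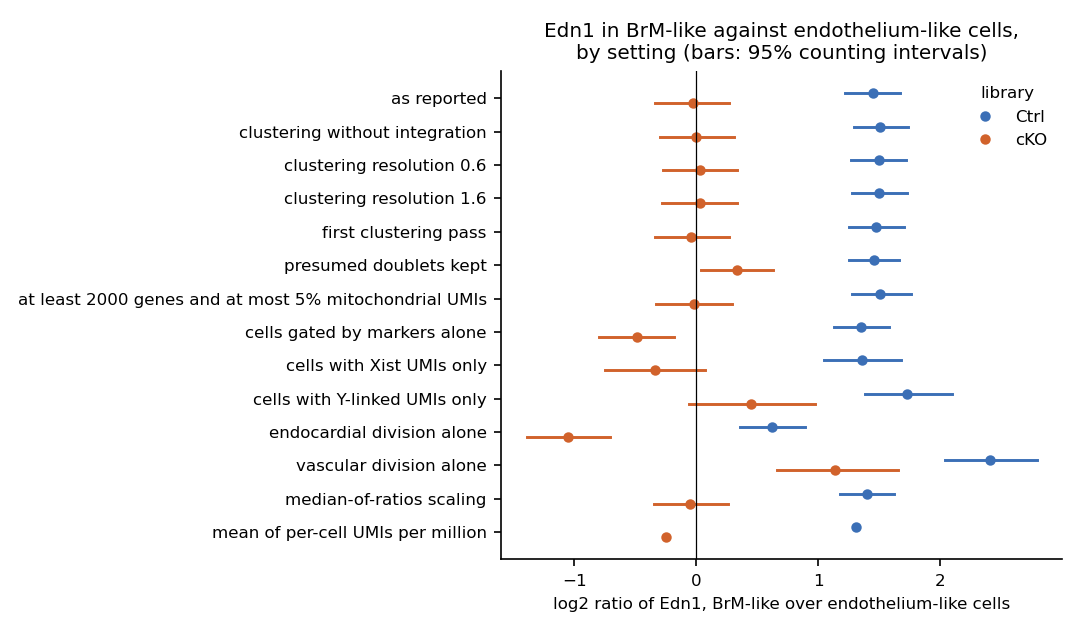
Log2 ratio of Edn1 in BrM-like over endothelium-like cells under each processing setting, 1 point per library with bars for the 95% counting interval and a line at equal levels. Every setting for the library labelled Ctrl lies above 0 (0.62 to 2.41), and the library labelled cKO lies on both sides of it (−1.05 to 1.14).

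Ednra encodes the receptor through which endothelin 1 acts on arch mesenchyme and cardiac cells. Among the named classes its level was highest in CM-like cells, at 31.3 CPM labelled Ctrl (26.6 to 36.6, 155 UMIs) and 28.6 CPM labelled cKO (25.0 to 32.7, 217 UMIs). SoM/aSHF-like (12.0 CPM), paraxial mesoderm-like (11.7 CPM), pSHF-like (10.6 CPM) and MLP-like cells (9.57 CPM) labelled Ctrl overlapped in their intervals and lay below CM-like cells. BrM-like cells labelled Ctrl followed with 4.22 CPM (3.04 to 5.70), and epicardium-like cells, at 2.14 CPM on 3 UMIs, overlapped with them. Endothelium-like cells were near the limit of a count of 0, with 3 Ednra UMIs labelled Ctrl and 4 labelled cKO.

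The class in which Ednra differed most between the libraries was the one in which Edn1 did. BrM-like cells held 42 Ednra UMIs labelled Ctrl (4.22 CPM) and 128 labelled cKO (12.7 CPM, 10.6 to 15.2), 3.02-fold higher (2.12 to 4.39), a log2 ratio of 1.6 (1.08 to 2.14). Ednra passed the filter in BrM-like cells only through the library labelled cKO, where it was high, so its place among the 1.48% of genes at least 2-fold higher is a description. Both BrM-like clusters had higher Ednra labelled cKO, from 4.30 to 12.4 CPM and from 4.04 to 13.3 CPM. After thinning, 2.14% of BrM-like cells labelled Ctrl and 6.77% of those labelled cKO held an Ednra UMI (7.92% and 16.6% without thinning), against 0.552% and 0.542% of thinned endothelium-like cells. At this level BrM-like cells labelled cKO stood beside MLP-like (11.7 CPM), paraxial mesoderm-like (11.8 CPM) and pSHF-like cells (11.3 CPM), whose intervals overlapped with theirs. With cells gated by markers alone in place of clusters, the ratio in BrM-like cells was 0.77 (0.42 to 1.13), still above 0.

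In the other main classes both libraries were closer in Ednra. MLP-like cells stood at 9.57 and 11.7 CPM, with a log2 ratio of 0.29 (0.01 to 0.57), but the sign depended on the clustering, at −0.32 without integration of the libraries and −0.28 at a resolution of 0.6. Within the class, the cluster with Nrg1 and Grem1 among its leading genes, where Edn1 differed most, went from 5.83 to 10.6 CPM. SoM/aSHF-like cells were lower labelled cKO, at 8.04 CPM, with a log2 ratio of −0.58 (−1.08 to −0.09). CM-like, pSHF-like and paraxial mesoderm-like cells gave −0.13 (−0.43 to 0.18), 0.09 (−0.20 to 0.37) and 0.01 (−0.48 to 0.48). The pSHF-like cluster led by Wnt4 and Cxcl13 was higher labelled cKO, at 9.28 and 13.3 CPM (0.52, 0.10 to 0.94), and the others of that class were within counting error. Of 24 clusters, 5 were lower and 4 higher labelled cKO beyond counting error. The log2 ratio in BrM-like cells exceeded that in MLP-like cells by 1.31 (0.74 to 1.88), an approximate interval, and over all kept cells Ednra stood at 14.1 and 13.3 CPM.

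The highest Ednra levels were in clusters that could not be named. These clusters together held 53.3% of Ednra UMIs labelled Ctrl and 46.9% labelled cKO. The cluster led by Crym, Fst, Ebf2 and Ebf1 stood at 58.1 CPM labelled Ctrl (51.7 to 65.1, 296 UMIs) and 35.5 CPM labelled cKO (31.2 to 40.2, 249 UMIs), a log2 ratio of −0.71. The cluster led by Cbr3, Lum, Tagln and Foxd1 stood at 45.4 CPM (131 UMIs) and 31.7 CPM (209 UMIs), a log2 ratio of −0.52. Because neural crest mesenchyme is the known site of this receptor, a list of 8 neural crest genes was read in these clusters. Sox10 and Foxd3, which mark early migrating crest and are known to be low in arch mesenchyme, had 0 UMIs in both clusters of both libraries. In the first cluster 3 of 8 crest genes had a UMI labelled Ctrl and 5 of 8 labelled cKO, summing to 77.0 and 69.2 CPM, of which Ets1, also an endothelial and mesodermal gene, made up 67.3 and 61.5 CPM. Tfap2a and Dlx1, which are known in arch mesenchyme, were at 0 there labelled Ctrl and had UMIs labelled cKO, and Dlx2 had UMIs in both libraries. In the second, 2 and 3 of 8 had a UMI, summing to 75.9 and 55.8 CPM, with Ets1 at 68.6 and 50.4 CPM, Tfap2a and Dlx1 at 0 in both libraries and Dlx2 at 0 labelled Ctrl.

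**Figure D5:**
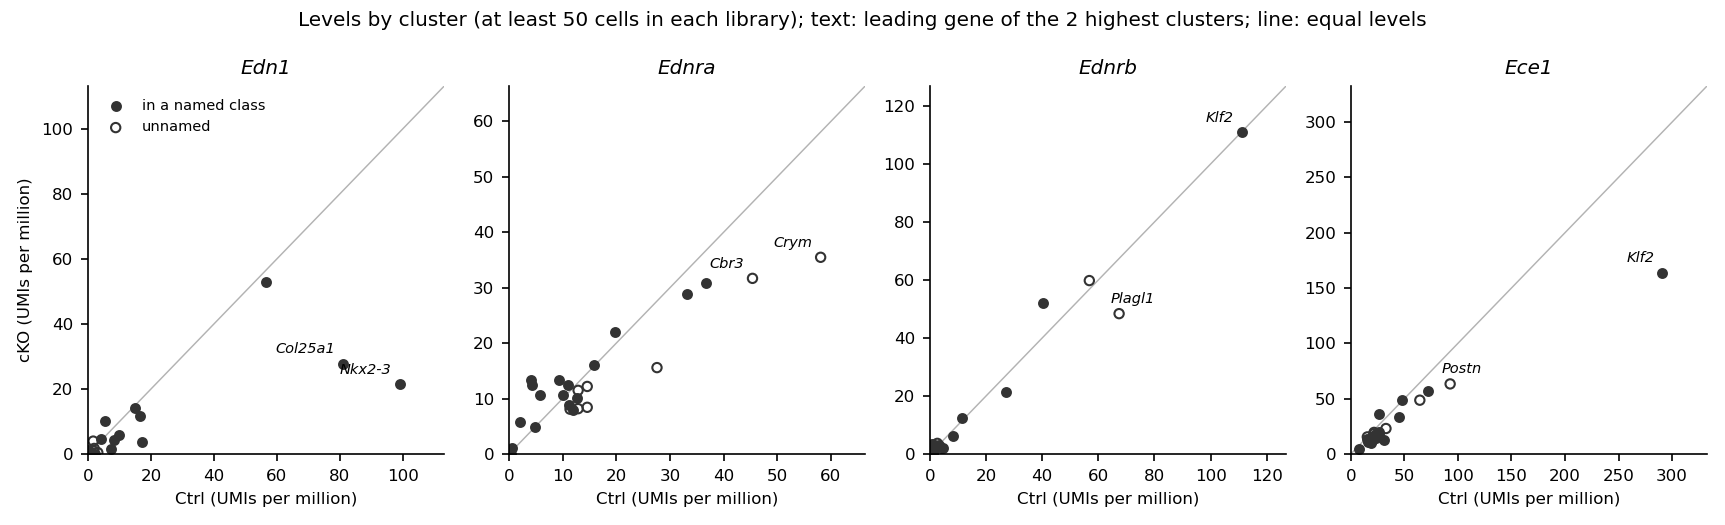
Level of each gene in every cluster of at least 50 cells in both libraries, with the library labelled Ctrl on the x axis and the library labelled cKO on the y axis, both in CPM; filled points belong to a named class, open points are unnamed, and the line marks equal levels. Both BrM-like clusters lie far below the line for Edn1, and the unnamed cluster led by Crym has the highest Ednra level.

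Ednrb, the receptor that binds all endothelins, was high in the endothelium-like class, where Ednra was near 0. Endothelium-like cells stood at 67.6 CPM labelled Ctrl (61.4 to 74.2, 436 UMIs) and 72.6 CPM labelled cKO (65.6 to 80.1, 395 UMIs), a log2 ratio of 0.10 (−0.10 to 0.30). Epicardium-like cells followed at 27.1 and 21.4 CPM. CM-like, pSHF-like, SoM/aSHF-like and MLP-like cells lay between 1.99 and 5.65 CPM in both libraries. BrM-like cells held 10 UMIs labelled Ctrl (1.0 CPM) and 4 labelled cKO (0.398 CPM), too few for the filter, and 0.777% and 0.150% of them held a UMI after thinning. Labelled Ctrl, Ednrb was 67.3-fold lower (36.3 to 141) in BrM-like than in endothelium-like cells. On the CPM scale no class differed in Ednrb between the libraries beyond counting error, 0 of 8 in each direction, but with median-of-ratios scaling the endothelium-like ratio was 0.21 (0.01 to 0.41). Of 23 clusters, 1 was lower and 2 were higher labelled cKO, among them the MLP-like cluster with Nrg1 and Grem1 among its leading genes, at 0.833 CPM (4 UMIs) and 3.41 CPM (18 UMIs).

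Within the endothelium, Ednrb followed the endocardial division. That division stood at 111 CPM in both libraries (276 and 211 UMIs), and the vascular division at 40.4 and 52.1 CPM, with a log2 ratio of 0.37 (0.05 to 0.68). After thinning, 43.9% and 30.6% of endocardial cells held an Ednrb UMI, and 65.2% and 57.8% without thinning, while the summed level was the same, so no order was read from the share. Of thinned erythroid-like cells 0 of 151 held one. High levels were also found in unnamed clusters, which held 51.5% of Ednrb UMIs labelled Ctrl and 61.2% labelled cKO. The cluster led by Postn, Alcam, Sfrp5 and Shox2 stood at 56.8 and 59.8 CPM (361 and 616 UMIs). The cluster led by Plagl1, Colec10, Dsg2 and Prnp stood at 67.4 and 48.4 CPM (283 and 317 UMIs), a log2 ratio of −0.48 (−0.71 to −0.24).

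Ece1 encodes the protease that releases the active peptide from big endothelin. It was detected in each of the 9 classes of at least 50 cells and was highest in the endocardial division, at 291 CPM labelled Ctrl (725 UMIs) and 164 CPM labelled cKO (313 UMIs). The vascular division stood at 71.7 and 56.6 CPM. Over the whole endothelium-like class the levels were 156 CPM (147 to 166, 1009 UMIs) and 94.3 CPM (86.3 to 103, 513 UMIs), 1.66-fold lower labelled cKO (1.49 to 1.85). After thinning, 73.4% and 59.7% of endocardial cells held an Ece1 UMI (94.3% and 87.1% without thinning), against 1.32% of thinned erythroid-like cells labelled cKO.

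Ece1 was lower labelled cKO in most classes. Of 8 classes, 6 were lower beyond counting error and 0 higher, and of 25 clusters 13 were lower and 0 higher. BrM-like cells, where Ece1 stood at 26.3 and 16.4 CPM, gave a log2 ratio of −0.68 (−0.97 to −0.39). Their clusters were unequal, at 23.9 and 18.5 CPM (−0.36, −0.72 to −0.01) in that led by Col25a1 and at 31.4 and 12.8 CPM (−1.30, −1.83 to −0.78) in that led by Nkx2-3. MLP-like cells gave −0.49 (−0.68 to −0.30), SoM/aSHF-like cells −0.40, pSHF-like cells −0.36 and paraxial mesoderm-like cells −0.63. CM-like cells at 14.5 and 12.9 CPM and epicardium-like cells at 47.8 and 48.7 CPM were within counting error. No class as a whole reached a 2-fold difference in Ece1, which the Nkx2-3-led cluster did. The endothelium-like ratio, −0.73 (−0.89 to −0.58), did not differ beyond counting error from that in MLP-like cells, with a difference of −0.24 (−0.49 to 0.00). Within the endothelium, the endocardial ratio of −0.83 (−1.02 to −0.63) was below the vascular ratio of −0.34 (−0.61 to −0.07) by a difference of −0.49 (−0.81 to −0.16).

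Other genes of the pathway were read in lists of 8 ligands and peptidases, 16 signal transduction genes and 8 arch effector genes, 32 in all. In BrM-like cells 14 of the 32 passed the filter, of which 6 were at least 2-fold lower labelled cKO (background 4.21%) and 0 at least 2-fold higher (1.48%), with a median log2 ratio, after adding 5 CPM, of −0.70 against −0.10 over all genes tested. In MLP-like cells 17 passed, 8 were at least 2-fold lower (3.48%) and 0 higher (0.701%), with a median of −0.75 against −0.09. In endothelium-like cells 17 passed, 1 was at least 2-fold lower (1.72%) and 0 higher (0.437%), with a median of −0.31 against −0.09. Of the genes at least 2-fold lower, 5 of 6 in BrM-like, 5 of 8 in MLP-like and 1 of 1 in endothelium-like cells passed the filter through the library labelled Ctrl alone, where they were high. The filter thus fixed part of these counts and medians, which describe the lists and support nothing.

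Among ligands and peptidases in BrM-like cells, 5 of 8 passed and 3 were at least 2-fold lower, all 3 passing through the library labelled Ctrl alone, beside 4.21% of all genes tested. Mme, which encodes neprilysin, a peptidase that degrades endothelin, stood at 21.8 CPM labelled Ctrl and 3.39 CPM labelled cKO. The proprotein convertase genes Pcsk5 and Pcsk6 stood at 12.0 and 2.49 CPM, and at 13.8 and 1.29 CPM. Edn3, a further endothelin gene and a ligand of the type B receptor, stood at 11.4 and 10.1 CPM, and Ece2 at 24.9 and 24.0 CPM. Edn2 and Kel had 0 UMIs in BrM-like cells of both libraries. In MLP-like cells Mme stood at 35.7 and 14.4 CPM, Pcsk6 at 23.8 and 2.14 CPM and Edn3 at 18.3 and 23.1 CPM. In endothelium-like cells 4 of the 8 passed and 0 of them were at least 2-fold apart, beside 1.72% of all genes tested that were lower and 0.437% that were higher, so 0 of 4 is near the background. Pcsk6, below the filter, stood at 6.04 and 1.47 CPM (39 and 8 UMIs).

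Signal transduction genes lie downstream of both receptors, since these couple to G proteins of the Gq class that activate phospholipase C. In BrM-like cells 8 of 16 passed and 3 were at least 2-fold lower, 2 of them passing through the library labelled Ctrl alone, beside 4.21% of all genes tested. Plcb1, a phospholipase C, stood at 20.1 and 2.99 CPM. Itpr1, a calcium channel gated by the product of that enzyme, stood at 58.4 and 17.6 CPM, and Rgs2, an inhibitor of Gq, at 28.0 and 5.68 CPM. Gnaq, which encodes Gq itself, stood at 76.4 and 45.0 CPM and its relative Gna11 at 37.5 and 41.6 CPM, neither of them 2-fold apart. In MLP-like cells 11 of 16 passed and 5 were at least 2-fold lower, 4 of them passing through the library labelled Ctrl alone, beside 3.48% of all genes tested. They were Plcb1 (13.0 and 4.08 CPM), Itpr1 (34.2 and 14.1 CPM), Itpr2 (13.4 and 5.86 CPM), Rgs2 (12.9 and 4.54 CPM) and Rgs5 (14.3 and 5.28 CPM). In endothelium-like cells 11 of 16 passed and 1 was at least 2-fold lower, beside 1.72% of all genes tested. It was Itpr2, at 19.8 and 9.19 CPM, which passed through the library labelled Ctrl alone, while Rgs2 stood at 67.3 and 53.5 CPM. Below the filter there, Rgs5 stood at 6.97 and 0.735 CPM (45 and 4 UMIs) and Plcb1 at 4.80 and 2.21 CPM (31 and 12 UMIs).

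Arch effector genes are known to respond to endothelin 1 in neural crest mesenchyme, which the sort should leave out. In BrM-like cells 1 of the 8 passed, Mef2c, at 15.6 and 18.8 CPM. Hand2 stood at 3.21 and 3.09 CPM, Dlx5 had 5 UMIs labelled Ctrl and 2 labelled cKO, and Dlx6 had 4 and 0. In MLP-like cells 2 of the 8 passed, and 1 of them was at least 2-fold lower labelled cKO (background 3.48%). That gene was Mef2c, at 127 and 42.8 CPM, with a log2 ratio of −1.57. The other was Hand2, at 35.3 and 28.1 CPM (log2 ratio −0.33, −0.49 to −0.17). Dlx5, below the filter, went the other way in MLP-like cells with 2 UMIs labelled Ctrl and 24 labelled cKO (log2 ratio 3.16, 1.15 to 6.29), and Dlx6 had 2 and 6. Also below the filter there, Dlx3 had 9 and 1 UMIs (−3.59, −9.05 to −0.74) and Nr4a1 21 and 10 (−1.49, −2.74 to −0.34), both lower. Hand1 and Gsc were within counting error. In endothelium-like cells Mef2c stood at 184 and 154 CPM and Hand2 at 69.9 and 59.7 CPM, both past the filter and not 2-fold apart. Below the filter there, Nr4a1 had 51 and 16 UMIs (−1.43, −2.34 to −0.59), Dlx5 6 and 0 and Dlx6 7 and 0. Hand1, at 4 and 7 UMIs, was within counting error.

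Markers of cells that the sort should leave out were low in BrM-like cells and were also not equal between the libraries. The 8 neural crest genes summed to 39.1 CPM labelled Ctrl and 21.6 CPM labelled cKO, of which Ets1 made up 22.1 and 15.2 CPM, and Tfap2b and Dlx1 were at 0 labelled cKO. The 7 pharyngeal epithelium genes, from another known source of endothelin 1, summed to 16.2 and 26.8 CPM, of which Krt18 made up 5.62 and 17.5 CPM, and Cdh1 and Cldn6 were at 0 labelled cKO. In MLP-like cells the crest genes summed to 53.9 and 30.9 CPM, of which Ets1 made up 43.8 and 16.5 CPM, with Foxd3 at 0 labelled Ctrl. The epithelium genes there summed to 49.9 and 56.2 CPM, of which Krt18 made up 27.7 and 34.2 CPM, with Cdh1, Foxa2 and Cldn6 at 0 labelled cKO. In endothelium-like cells the crest genes summed to 127 and 104 CPM, nearly all of it Ets1, with Sox10, Foxd3, Tfap2a and Tfap2b at 0, and the epithelium genes to 12.1 and 12.9 CPM. The part of these markers in the Edn1 and Ednra values was not tested.

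Edn1 and Ece1 were both detected in some cells of the BrM-like class. After thinning, labelled Ctrl, Edn1 was found in 46.9% (34.3 to 59.8) of 64 BrM-like cells with an Ece1 UMI and in 30.8% (26.6 to 35.3) of 451 without, intervals that just overlap. Labelled cKO, the shares were 10.3% and 10.7%. In endothelium-like cells labelled Ctrl, Edn1 was found in 15.3% (10.3 to 21.4) of 177 with an Ece1 UMI and in 4.86% (2.25 to 9.03) of 185 without, and labelled cKO in 11.3% (6.63 to 17.8) and 7.46% (4.40 to 11.7). That class pools 2 divisions that differ in both genes. Within the endocardial division the Ctrl shares were 18.6% (11.6 to 27.6) and 13.5% (4.54 to 28.8), and within the vascular division 10.7% (4.72 to 19.9) and 2.70% (0.741 to 6.78), with overlapping intervals in each. Labelled cKO they were 15.1% and 19.0% in the first and 5.45% and 3.53% in the second, again overlapping. Ligand and type A receptor were seldom found in 1 BrM-like cell, in 0.388% of thinned cells labelled Ctrl (2 cells) and 0.602% labelled cKO (4 cells). Labelled Ctrl, Edn1 was found in 28.5% (22.5 to 35.2) of thinned BrM-like cells with a Tbx1 UMI and 35.7% (30.4 to 41.3) of those without. Labelled cKO these shares were 8.65% and 11.6%. A Tbx1 UMI was found in 40.2% of thinned BrM-like cells labelled Ctrl and in 80.9% without thinning, and labelled cKO in 31.3% and 53.9%. Cells without a Tbx1 UMI after thinning thus include cells with Tbx1, and a dependence of Edn1 on Tbx1 was not tested.

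For each gene the most similar genes were found over 15 sums of a class in a library, among 7323 genes, by Pearson's r of log2 levels after adding 5 CPM. The sums share libraries and depth, so r is a description. They cover named classes alone, so the unnamed clusters, with 53.3% of Ednra and 51.5% of Ednrb UMIs labelled Ctrl, took no part. For Edn1 they were Chst15 (0.928), Cxcr4 (0.896), 1110032F04Rik (0.895), Igfbp3 (0.859) and Col13a1 (0.853). For Ednra they were Eno3 (0.939), Col2a1 (0.936), Akap8l (0.930), Speg (0.914) and Pdk3 (0.904). Ednrb was closest to Arhgap18 (0.984), Entpd1 (0.975), Klhl4 (0.974), Sat1 (0.971) and Prkch (0.971), and Ece1 to F2r (0.959), Specc1 (0.948), Zfp948 (0.946), Yes1 (0.944) and Rap1b (0.943).

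Male and female cells must come from separate embryos, and the values were therefore also read per sex. Of kept cells, 51.1% labelled Ctrl and 56.5% labelled cKO held Xist UMIs and no Y-linked UMI, and 40.2% and 31.1% the reverse. In BrM-like cells with Xist alone, Edn1 stood at 87.3 and 24.1 CPM, with a log2 ratio of −1.86, and in those with Y-linked UMIs alone at 90.6 and 29.8 CPM, with a log2 ratio of −1.60. Ednra in the same cells was higher labelled cKO in both, with 2.64 and 12.9 CPM in the first (a log2 ratio of 2.29) and 5.50 and 13.8 CPM in the second (1.33). Ece1 in endothelium-like cells was lower in both, at −0.36 (−0.59 to −0.13) and −0.94 (−1.17 to −0.70), unequal beyond counting error. The smaller Edn1 difference in endothelium-like cells was −0.15 in the first and −0.32 in the second.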

How the data were processed

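The data were 2 single-cell RNA libraries, 1 per genotype, grouped by the genotypes in the labels. The deposited values are raw counts of UMIs per gene and barcode. The authors obtained them with Cell Ranger 3.1.0 (version from the submitters' processing notes) on the mm10 build. Such counts of 3′ ends follow molecule capture and depth, not transcript length.

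Cells were kept with at least 1000 genes and at most 10% mitochondrial UMIs, which left out 411 cells labelled Ctrl and 508 labelled cKO. Doublets were scored with Scrublet (scanpy 1.11.5), and the highest-scoring cells were removed at 0.8% per 1000 cells, 416 and 804. Of the removed cells, 37.5% and 33.7% held Xist and Y-linked UMIs together, against 1.32% and 1.28% of those kept.

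Clustering used Seurat 5.3.0 (R 4.3.3) with reciprocal principal component integration, 2000 variable genes, 30 dimensions and resolution 1. The 4 genes and others, 179 in all, never entered it, and 1128 genes at least 2-fold apart between Ctrl and cKO in any of 7 provisional classes were then left out. A marker counted if found in at least 10% of cells of a cluster with a log2 excess of at least 0.5 over the rest. A cluster was named on at least 3 markers, more than 50% of its list and its 10 leading genes by fold, by thresholds set after the data had been seen.

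Sums, intervals and shares were computed with numpy 2.4.6 and scipy 1.17.1 and the code was tested on simulated data. Genes needed at least 10 CPM and 30 UMIs in either library to be counted, and called means at least 2-fold. Named are the 4 genes, the pathway lists, Tbx1, per gene the 5 most similar genes, genes of the marker lists for neural crest and pharyngeal epithelium, and leading genes of clusters. Sequences and positions came from RefSeq tables of GRCm38.p6, the assembly that mm10 names. The genes and lists were chosen with earlier results of these data known. Co-detection of Edn1 with Tbx1 and the use of each endothelial division alone were added after seeing the data. The study's further libraries and its models over single cells were not used here, and 1 further gene of a marker list is not reported here.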

Additional observations from a re-analysis of the deposited data

Results flagged for a closer look

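Each value below is a log2 ratio, library labelled cKO over library labelled Ctrl, of 1 gene in 1 class or cluster that lay beyond counting error on 1 side of 0 while the same gene lay beyond it on the other side elsewhere. With 1 library per genotype no such difference was tested between genotypes. For Edn1, −1.77 in BrM-like, −0.91 in MLP-like and −0.98 in CM-like cells stood opposite to 1.26 in the unnamed cluster with Gm14226, Nudt11 and Efemp1 among its leading genes, where the level went from 1.66 to 3.99 CPM on 13 and 27 UMIs. The unnamed cluster led by Cbr3, Lum, Tagln and Foxd1 gave −2.78 (−5.30 to −0.77) on 9 and 3 UMIs.

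For Ednra, 1.6 in BrM-like and 0.29 in MLP-like cells stood opposite to −0.58 in SoM/aSHF-like cells. It also stood opposite to 4 unnamed clusters, at −0.79 in that led by Postn, Alcam, Sfrp5 and Shox2, −0.71 in that led by Crym, Fst, Ebf2 and Ebf1, −0.66 in that led by Barx1, Ifitm1, Tmem158 and Tox3 and −0.52 in that led by Cbr3, Lum, Tagln and Foxd1.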

How the results depend on the processing

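No paired analysis was possible because each group has 1 library, and for the same reason no replicate could be left out. The BrM-like Edn1 ratio lay between −2.08 and −1.60 over 11 alternatives, and 10 of them moved it by less than its counting interval. Gating cells by markers alone gave −2.08 for it, 0.77 for Ednra in BrM-like cells, −0.49 for Edn1 in BrM-like over endothelium-like cells labelled cKO and 7.88% for the share of thinned BrM-like cells labelled cKO with Edn1. Keeping doublets gave −0.66 for Edn1 in endothelium-like cells and 0.33 for BrM-like over endothelium-like cells labelled cKO. Against the endocardial division alone that comparison gave 0.62 labelled Ctrl and −1.05 labelled cKO, and against the vascular division 2.41 and 1.14. In cells with Y-linked UMIs alone it gave 1.73 and 0.45, and with Xist alone −0.34 labelled cKO. Ednra in MLP-like cells changed sign without integration (−0.32) and at resolution 0.6 (−0.28) and was 0.78 in the first clustering pass and 0.72 with at least 2000 genes and at most 5% mitochondrial UMIs. With Xist alone, Ednra in BrM-like cells was 2.29, Ednrb in endothelium-like cells 0.39 and Ece1 there −0.36, and with Y-linked UMIs alone Ece1 was −0.94. The cause of these moves was not tested.

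Shares of cells with Edn1 follow depth by construction. Without thinning they were 62.5% and 24.9% in BrM-like and 19.1% and 14.2% in endothelium-like cells, labelled Ctrl and cKO. Thinned to 2000 UMIs they were 17.0% and 5.84%, and 4.37% and 2.89%. Asking for at least 2 UMIs gave 10.3% and 1.05%, and 3.87% and 3.25%. Depth limits Ednrb in BrM-like cells (10 and 4 UMIs), Ednra in endothelium-like cells (3 and 4 UMIs) and Edn1 in epicardium-like cells (14 and 9 UMIs).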
